A study of Mus musculus with 12 samples.

Results

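The 47 genes described here encode the subunits of the receptors for glutamate, GABA and glycine, the main fast transmitters of the brain. They were chosen by name alone, with no measured value, from a table of 43629 gene IDs: 4 AMPA receptor genes (Gria), 2 delta (Grid), 5 kainate (Grik), 7 NMDA (Grin), 8 metabotropic glutamate (Grm), 14 GABA-A (Gabra, Gabrb, Gabrg, Gabrd, Gabre, Gabrq), 2 GABA-B (Gabbr) and 5 glycine receptor genes (Glra, Glrb). The rule left out Gabra6 and Grina, and it was set with earlier results of these data known. Together these genes held 0.558 to 0.62% of the reads of a library. The receptor names fitted the data as far as a brain sample allows: 46 of the 47 had reads in all 12 libraries, and the exception was Grm6, a receptor of retinal bipolar cells, at 0 to 0.0377 CPM (a gene's reads scaled to a common library total).

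The ionotropic receptors are ligand-gated channels assembled from several subunits around a pore. AMPA, kainate and NMDA receptors pass cations and excite the neuron, while GABA-A and glycine receptors pass chloride and in the adult brain mostly inhibit it. Metabotropic glutamate receptors and GABA-B receptors act through G proteins and set transmitter release and excitability on a slower scale. Subunit choice differs between brain regions and cell types, and it fixes a receptor's kinetics, its drug sensitivity and where on the neuron it is placed.

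Poly(A) RNA was sequenced from the brains of mice 3 months old, in 12 libraries, 3 for each combination of sex and treatment. As newborns the mice had received PBS, the control, or a recombinant adeno-associated virus (rAAV) encoding collagen domain constructs, by injection into the cerebral ventricles. Per the series title, the domain comes from C1qTNF3 and serves as a fusion partner for secreted proteins, and the comparison of the labels asks how brain expression differed between the construct and the control. All groups therefore shared the neonatal injection, and no group used here received an rAAV without the construct, so that vector and construct cannot be told apart. The strain, the promoter driving the construct, the protein fused to the domain and whether each library came from a separate mouse are not given in the sources used here. If some libraries shared a mouse, p-values would measure technical spread. RNA came from pulverised forebrain of 1 frozen hemisphere, per the labels' protocols.

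Library totals ran from 39272127 to 52323985 reads. Several libraries went against their labels. C1qtnf3 had 8 to 28 reads in 6 libraries and 1071 to 4966 in the other 6, and 4 libraries were on the wrong side of 1000 reads for their label: the libraries labelled PBS female 2, PBS male 1, collagen domain female 1 and collagen domain female 3. By the reads of Xist, transcribed from the inactive X, and Ddx3y, a Y-linked gene, 4 libraries went against the labelled sex: PBS female 2, PBS male 1, collagen domain female 1 and collagen domain male 3. In all, 5 of the 12 libraries went against 1 label or both, so every difference below is between labelled groups, and values without those libraries follow the comparisons. Cerebellum markers, 10 genes in all, summed to 286 to 672 CPM in 5 libraries and to 17 to 22.1 CPM in the other 7. The 17 brainstem and Hox markers summed to 24.2 to 81.0 CPM in 6 libraries and to at most 0.719 CPM in the other 6, where 9 to 16 of them were at 0. The tissue named forebrain in the protocol thus held hindbrain transcripts to an uneven degree, and members that differ between these regions are described beside the markers.

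Levels of different genes are compared as CPM per kilobase of exon (CPM per kb), as means over the 12 libraries with their SD. Neighbours in an order are said to differ only where their ranges over the 12 libraries were apart. Among the AMPA receptor genes, which carry most fast excitation, Gria1 was highest at 63.1 ± 3.33 CPM per kb (SD, n = 12). Gria2, whose edited protein keeps calcium out of the channel, followed at 41.7 ± 4.53 CPM per kb. Gria4 at 24.3 and Gria3 at 21.3 CPM per kb overlapped, while the other neighbours in this order did not. With the longest transcript in place of all exons the lowest AMPA gene was Gria4. Gria1 and Gria2 then stood close, at 68.8 and 62.6 CPM per kb, so the gap between them depended on the length used. Summed over the 4 genes the AMPA level varied only 1.1-fold, from 144 to 158 CPM per kb. The delta gene Grid1, whose protein binds cerebellin synapse organisers rather than acting as a typical glutamate channel, stood at 8.92 ± 0.764 CPM per kb.

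The kainate receptor genes spread over a wider range, with no overlap between neighbours. Grik5, which encodes an auxiliary high-affinity subunit that needs a partner, stood at 27.1 ± 2.41 CPM per kb. Of the subunits able to form channels by themselves, Grik3 reached 9.66 ± 1.38, Grik2 4.70 ± 0.312 and Grik1 1.89 ± 0.147 CPM per kb. Grik4, the other high-affinity subunit, stood between them at 3.18 ± 0.348 and became the lowest with the longest transcript as length. The kainate sum varied 1.38-fold over the libraries, from 37.2 to 51.4 CPM per kb.

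Grin1, the obligatory subunit of NMDA receptors, led that family at 18.0 ± 1.41 CPM per kb. Grin2b at 8.94 and Grin2c at 8.06 CPM per kb overlapped. Grin2b marks forebrain and juvenile receptors, and Grin2c is known from cerebellar granule cells. Grin3a, whose subunit lowers calcium flow, followed at 3.85 CPM per kb. Grin2d at 2.56 CPM per kb overlapped its neighbours on both sides, and Grin2a, the partner that replaces much Grin2b with maturation, stood at 1.65 ± 0.35 CPM per kb. Grin3b, known from motor neurons, was detected at 0.0952 ± 0.0561 CPM per kb, a level of 0.0927 to 0.734 CPM. The ratio of Grin2a to Grin2b per kb had a median of 0.189 and ran from 0.119 in PBS female 1 to 0.215 in collagen domain male 1. It was 0.176 ± 0.0294 (SD, n = 6) in libraries labelled PBS and 0.195 ± 0.0164 (SD, n = 6) in those labelled collagen domain, with overlapping ranges.

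Metabotropic glutamate receptors were led by Grm5 and Grm3, which overlapped at 19.1 and 18.9 CPM per kb. Grm5 encodes the Gq-coupled receptor of forebrain neurons, and Grm3 is a Gi-coupled receptor also found in astrocytes. The presynaptic Gi-coupled receptors Grm7, Grm4, Grm2 and Grm8 followed at 8.01, 7.37, 6.22 and 1.81 CPM per kb, and of these only Grm8 lay apart from its upper neighbour. Grm6 averaged 0.00199 CPM per kb and was not tested.

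GABA-A receptors combine alpha with beta subunits, between which GABA binds, usually with a further kind of subunit. Of the alpha genes, Gabra3 stood at 44.7 ± 4.78 CPM per kb (SD, n = 12). Its range lay apart from that of the beta gene Gabrb2, at 29.1 ± 2.82 CPM per kb. Gabrb2 overlapped Gabra4 at 26.4 CPM per kb, the first of the subunits known from extrasynaptic receptors, and Gabra4 overlapped Gabra5 at 20.9, which overlapped Gabrd at 19.4 CPM per kb. Gabra2, an alpha subunit of the axon initial segment, had 11.9 CPM per kb and Gabrg1 had 6.97. The lower members were Gabrg3 at 2.24, Gabrb1 at 2.16, Gabrq at 1.42 and Gabre at 0.277 ± 0.15 CPM per kb. Gabrq and Gabre encode the theta and epsilon subunits, which are known from hypothalamus and brainstem nuclei.

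The GABA-B receptor works as a pair of Gabbr1, which binds GABA, and Gabbr2, which couples to the G protein. Gabbr1 stood at 79.7 ± 3.8 CPM per kb, 2.02 times the 39.5 ± 3.82 CPM per kb of Gabbr2, and the ranges were apart. Of the glycine receptor genes, Glrb, the beta subunit that binds gephyrin, stood at 63.5 ± 4.09 CPM per kb. That was 10.4 times the level of the highest alpha gene, Glra2, the alpha subunit of immature and forebrain receptors, at 6.13 ± 0.672 CPM per kb. Glra1, the adult alpha subunit of spinal cord and brainstem, averaged 2.06 ± 1.71, Glra3 0.732 and Glra4 0.288 CPM per kb. The SD of Glra1 was of the order of its mean, and its range overlapped that of Glra3.

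**Figure D1:**
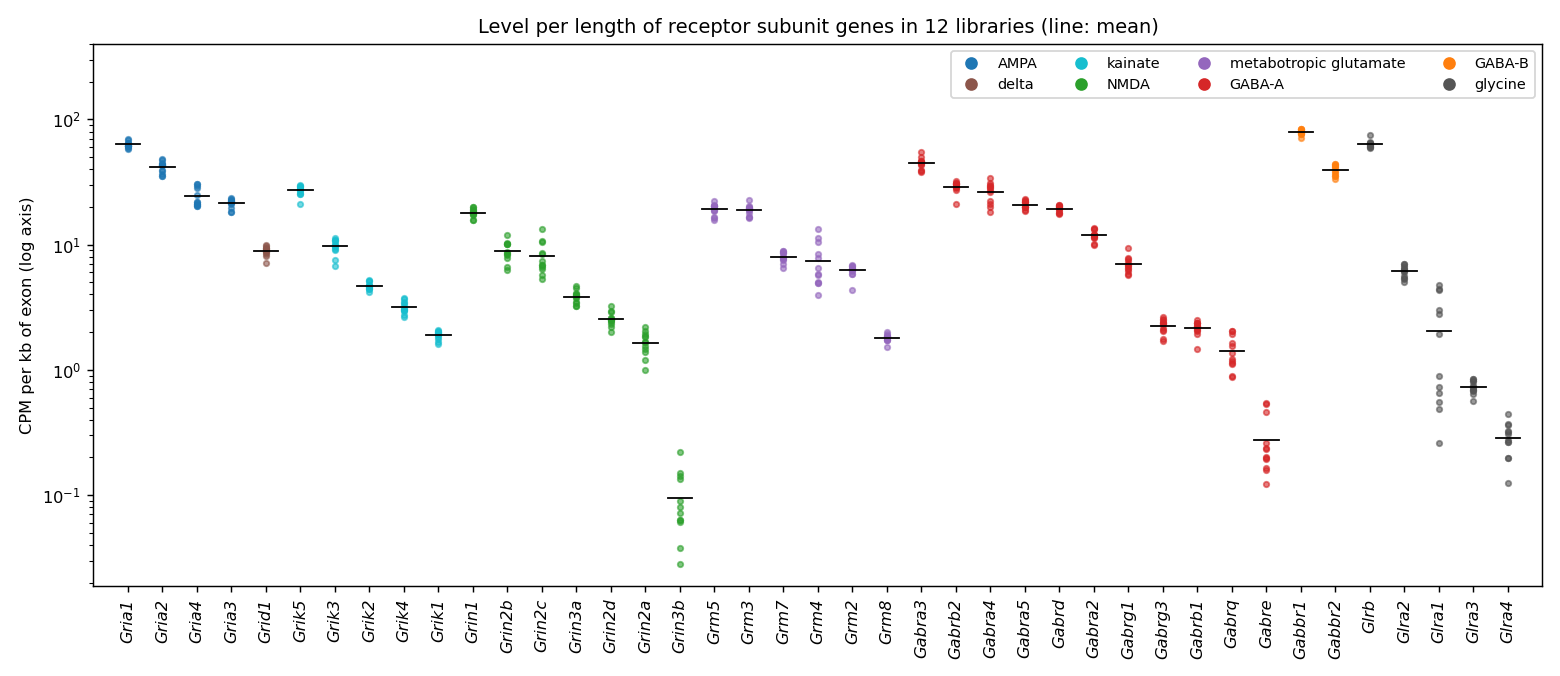
Level of 41 receptor subunit genes in CPM per kb of exon, on a log axis, grouped by receptor family and ordered by mean; each point is 1 of the 12 libraries and each line the mean. Gabbr1 stands highest of those drawn, at 79.7 CPM per kb, and Glra1 and Gabre show wide columns of points.

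Between the labelled treatments, no subunit gene passed the threshold. In both sexes together, 0 of 46 members tested were called by edgeR at an adjusted p under 0.05, beside 0.0% of all 19145 genes tested. At an unadjusted p under 0.05 there were 0 members and 354 genes, and DESeq2 and limma-voom each called 0 members and 0 genes. The log2 fold changes of the members, collagen domain over PBS, ran from -0.198 (Glra1) to 0.259 (Gabrq), with 26 above 0 and 20 below. Their median was 0.012, beside 0 over all genes, and 56.5% lay above 0, beside 50.1% of all genes. The 95% interval lay within 0.5 on either side of 0 for 37 of the 46 and within 1 for 42, so that larger shifts between the labelled groups are outside those intervals. By family, the values were above 0 for 6 of 7 NMDA, 6 of 7 metabotropic glutamate, 3 of 5 kainate, 6 of 14 GABA-A, 1 of 4 AMPA and 1 of 5 glycine genes.

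The smallest p-values belonged to genes with small differences. Grik3 ran from 60.2 CPM through a median of 87.7 to 96.5 CPM in the libraries labelled PBS, and from 80.9 through 92.8 to 102 CPM in those labelled collagen domain. The groups overlapped, and the 2 lowest libraries, PBS male 3 and PBS female 1, were both labelled PBS. The log2 fold change was 0.16 (SE 0.114, edgeR adjusted p = 1), and 0.083 without PBS male 3 or 0.222 without PBS male 2. Gabrb2 ran from 135 through 184 to 197 CPM in PBS and from 175 through 193 to 203 CPM in collagen domain libraries, a log2 fold change of 0.10 (SE 0.0835, edgeR adjusted p = 1). PBS female 1 alone lay below 175 CPM, and without it the log2 fold change was 0.03.

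Glrb ran from 274 through 299 to 347 CPM in PBS and from 279 through 289 to 301 CPM in collagen domain libraries. Its log2 fold change of -0.067 (SE 0.0568, edgeR adjusted p = 1) fell to -0.021 without PBS male 3. Gabrq ran from 4.8 through 6.45 to 10.3 CPM in PBS and from 4.68 through 8.48 to 11 CPM in collagen domain libraries, a log2 fold change of 0.26 (SE 0.228, edgeR adjusted p = 1). It was 0.14 without collagen domain female 2 and 0.433 without PBS female 3. For each of these 4 genes the labelled groups overlapped. Glra1 had the widest interval, from -1.87 to 1.47.

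**Figure D2:**
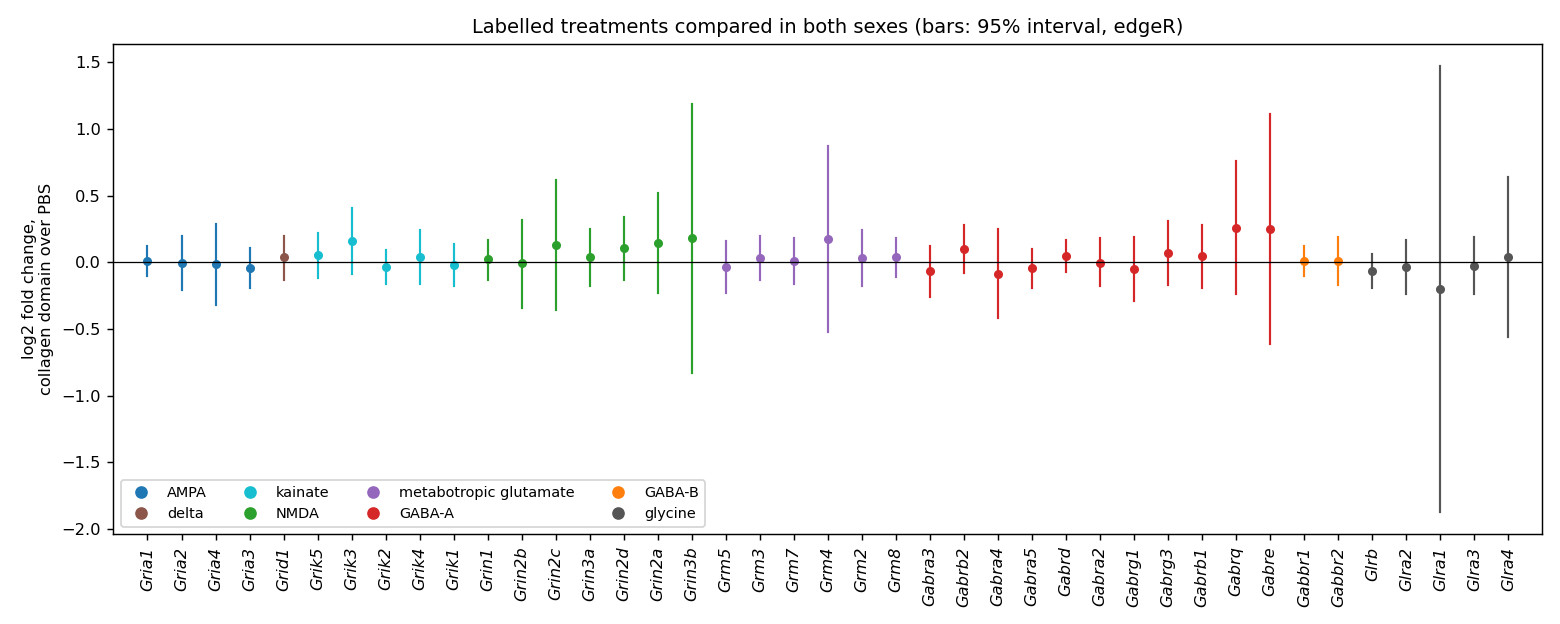
Log2 fold change (collagen domain over PBS, both sexes, by label) of 41 members tested, with the 95% interval of the edgeR fit as bars and families in colour. Every interval drawn includes 0; the points lie between -0.198 and 0.259, and Glra1, Grin3b and Gabre have the widest bars.

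Within the labelled sexes the result was the same. In females 0 of 46 members were called by edgeR beside 0.0% of all genes, with 0 members and 280 genes at an unadjusted p under 0.05, and in males 0 members beside 0.0%, with 0 and 325. DESeq2 called 0 members in either sex, and 0 and 3 genes. The smallest p-values in females were those of Gabrb2, Gabrb1 and Grin2a, and in each the lowest value was that of PBS female 1. Gabrb2 had 135, 197 and 182 CPM in PBS females 1 to 3 and 193, 193 and 198 CPM in collagen domain females (log2 fold change 0.19), and without PBS female 1 the difference was 0.041. Gabrb1 had 20.4, 29.4 and 31.2 CPM against 30.9, 28.4 and 32.9 CPM (0.19, and 0.022 without PBS female 1). Grin2a had 17.8, 29.9 and 30.2 CPM against 33.3, 27.9 and 34.5 CPM (0.30, and 0.09 without it).

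In males the 3 smallest p-values were those of Gabrg1, Gabrq and Grm8. Gabrg1 had 53.6, 54.5 and 73.9 CPM in PBS males 1 to 3 and 48.6, 51.5 and 59.9 CPM in collagen domain males (log2 fold change -0.19, and -0.018 without PBS male 3). Gabrq had 6.07, 6.59 and 7.3 CPM against 5.99, 8.71 and 11 CPM (0.37, and 0.145 without collagen domain male 3 or 0.565 without collagen domain male 1). Grm8 had 17.8, 18.5 and 15.0 CPM against 18.1, 17.2 and 19.7 CPM (0.10, and 0.015 without PBS male 3 or 0.157 without PBS male 2). All of these groups overlapped.

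The test of whether the treatment difference itself differed between the sexes called 0 of 46 members with edgeR, beside 0.0% of all genes (0 members and 263 genes at an unadjusted p under 0.05; DESeq2 called 0 members and 1 gene). The smallest p-values were those of Gabrb1, with an interaction of -0.28, Gabrg1 with -0.27 and Grm7 with 0.18 on the log2 scale. With 1 library left out in turn, Gabrb1 ran from -0.4 (without PBS female 3) to -0.12 (without PBS female 1), Gabrg1 from -0.374 (without PBS female 1) to -0.1 (without PBS male 3), and Grm7 from 0.083 (without PBS male 3) to 0.276 (without collagen domain male 2). Grm7 had 51.0, 44.7 and 51.9 CPM in PBS females, 46.1, 46.6 and 47.1 in collagen domain females, 50.2, 45.5 and 38.4 in PBS males and 50.2, 41.5 and 52.3 CPM in collagen domain males.

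Between libraries labelled male and female, 0 of 46 members were called by edgeR beside 0.0% of all genes (0 members and 377 genes at an unadjusted p under 0.05; DESeq2 called 0 members and 8 genes). The members' median log2 difference, male over female, was -0.024, with 19 above 0 and 27 below. Glra3 ran from 5.24 to 7.51 CPM in females and from 5.86 to 7.84 CPM in males (0.15). Gria1 ran from 370 to 420 CPM in females and from 353 to 393 CPM in males (-0.065). Grm3 ran from 50.2 to 61.1 CPM in females and from 49.6 to 68.7 CPM in males (0.098). With 1 library left out, Glra3 ran from 0.096 (without PBS female 1) to 0.207, Gria1 from -0.084 to -0.041 (without collagen domain female 2), and Grm3 from 0.05 (without collagen domain male 1) to 0.153 (without collagen domain male 2). Since 4 libraries went against the labelled sex, these are differences between labels.

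Leaving out the 5 libraries that went against a label did not bring a member past the threshold. In the remaining 7 libraries, edgeR called 0 of 46 members and 2 of all genes for treatment in both sexes. The members' median log2 fold change was then 0.072, beside -0.004 over all genes, with 28 above 0 and 18 below. At an unadjusted p under 0.05 were Gabrg1, at -0.33 (SE 0.131, edgeR adjusted p = 0.681), and Gabra4, at -0.45 (SE 0.192, edgeR adjusted p = 0.681). In the same 7 libraries Grik3 was at 0.266, Gabrb2 at 0.125, Glrb at -0.113 and Gabrq at 0.251, and the companions Kctd12 at -0.377, Grip2 at 0.266, Gphn at -0.066 and Abhd6 at -0.102.

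The other comparisons without these libraries also called 0 of 46 members with edgeR, beside 1 of all genes in females, 1 in males, 0 for the interaction and 8 between the sexes. Only 1 library labelled collagen domain female then remains and is assumed to vary like the other groups. In females Gabrb2 was at 0.277, Gabrb1 at 0.127 and Grin2a at 0.207, and in males Gabrg1 was at -0.383, Gabrq at 0.06 and Grm8 at 0.056. The interaction was -0.204 for Gabrb1, -0.137 for Gabrg1 and 0.264 for Grm7. Between the sexes Glra3 was at 0.096, Gria1 at -0.114 and Grm3 at 0.2. All of these genes kept their direction.

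With the hindbrain marker level as a covariate in all 12 libraries, edgeR called 0 of 46 members and 0 of all genes for treatment in both sexes. At an unadjusted p under 0.05 were 3 members, each with an edgeR adjusted p of 0.777: Gabra4 at -0.21 (SE 0.0758), Grin2c at 0.25 (SE 0.105) and Grm4 at 0.33 (SE 0.144). The number of all genes at that unadjusted cut is not given here, so these 3 have no share over all genes beside them.

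Most subunit genes varied little from library to library, and a few varied widely. Over the 44 members with a mean of at least 1 CPM, the SD of log2 CPM was under 0.2 for 31 and above 0.5 for 4. The median over the 46 members tested was 0.16, beside 0.185 over all genes tested. The smallest SDs were those of Gabbr1 (0.070), Gria1 (0.075), Gabrd (0.087), Glrb (0.089) and Grik2 (0.095). Gabbr1 lay between 553 and 654 CPM in every library, Gria1 between 353 and 420, Gabrd between 50.4 and 59.9, and Grik2 between 55.8 and 69.0 CPM. Among the 10 largest SDs were those of Glra1 (1.43), Gabre (0.68), Grm4 (0.55), Gabrq (0.43), Grin2c (0.40), Grin2a (0.33), Gabra4 (0.28), Grin2b (0.27) and Gria4 (0.24).

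**Figure D3:**
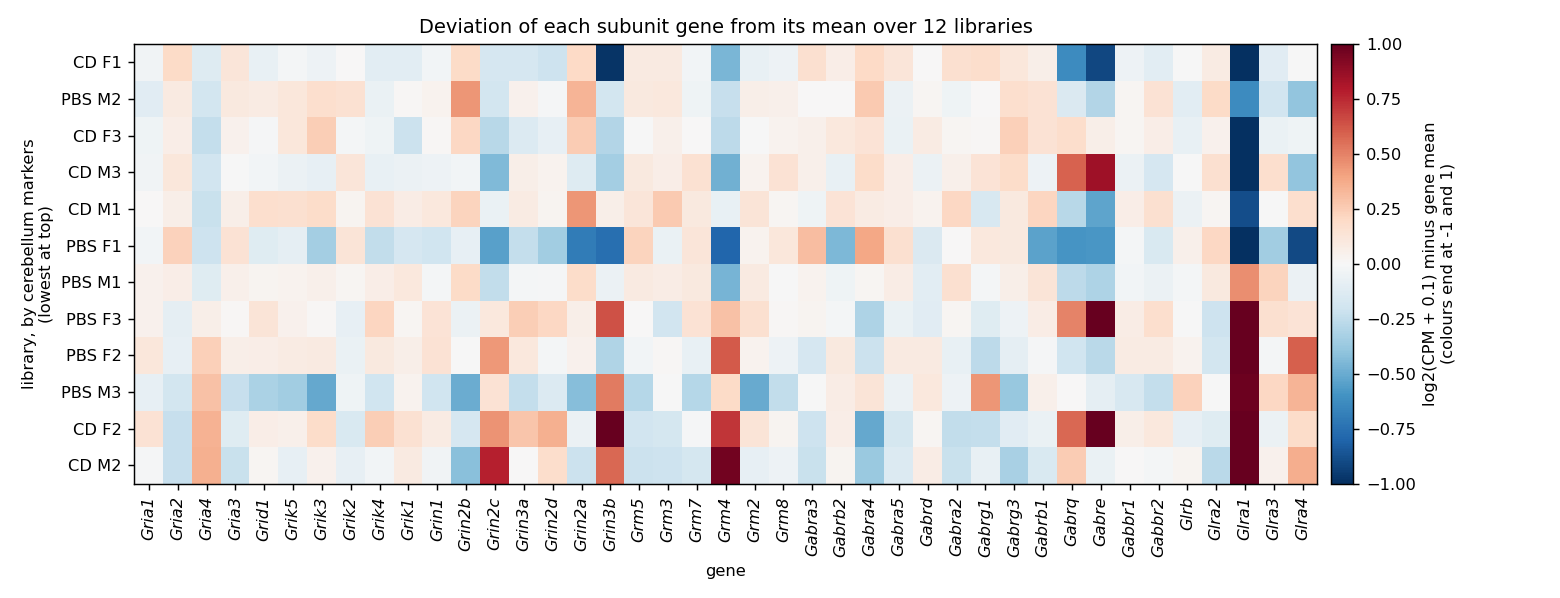
Deviation of 41 members from their own mean over 12 libraries, as log2(CPM + 0.1), with libraries as lines ordered by cerebellum marker level (lowest at the top; CD, collagen domain; F and M, labelled sex) and colours ending at -1 and 1. The lower 5 lines, the libraries with high cerebellum markers, are red for Glra1, less so for Grm4 and only pale for Gria4. Most columns are pale throughout.

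The widest of these, Glra1, split the libraries as the hindbrain markers did, across the labels. Glra1 had 0.626, 7.29 and 10.6 CPM in PBS females 1 to 3, 4.66, 2.14 and 6.72 CPM in PBS males, 1.34, 10.4 and 1.58 CPM in collagen domain females and 1.77, 11.4 and 1.18 CPM in collagen domain males. Its highest library exceeded its lowest 18.2-fold, and each labelled treatment held both high and low libraries. The 5 libraries with high cerebellum markers (PBS female 2, PBS female 3, PBS male 3, collagen domain female 2 and collagen domain male 2) had 6.72 to 11.4 CPM of Glra1, and the other 7 had 0.626 to 4.66 CPM. In bulk RNA, more cells of a type and more RNA per cell cannot be told apart.

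In those 5 libraries 6 of 46 members lay above all other 7 libraries, which is 13%, beside 5.06% of all genes tested, and Glra1, Gria4, Grin2c and Grm4 were among them. Another 4, or 8.7%, lay below all others, beside 2.79% of all genes: Gabrg3, Glra2, Gria2 and Grik2. These counts describe the libraries and carry no test. Other marker lists parted the same libraries, by smaller steps than the cerebellum markers. By mean log2 CPM, astrocyte and oligodendrocyte markers were higher in all 5 libraries than in the other 7. Striatum, olfactory bulb and, narrowly, cortical excitatory neuron markers were lower in all 5. Thalamus, hypothalamus and microglia markers overlapped. Grm4, the presynaptic receptor of granule cell terminals, ran from 47.0 through a median of 63.1 to 80.3 CPM in the 5 libraries and from 23.7 through 29.9 to 39 CPM in the others. Grin2c ran from 42.2 through 52.9 to 67.4 CPM, against 26.9 through 33.1 to 37.5 CPM. Gria4 ran from 157 through 185 to 193 CPM, against 128 through 132 to 139 CPM. By ratio of medians the step was 6.55-fold in Glra1, 2.11-fold in Grm4, 1.6-fold in Grin2c and 1.41-fold in Gria4.

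The genes that were lower in the same libraries moved by less. Gria2 ran from 550 through 568 to 608 CPM in the 5 libraries and from 673 through 688 to 756 CPM in the others, and Gabrg3 from 20.4 through 24.6 to 25.6 CPM, against 27.7 through 28.7 to 31.4 CPM. Glra2 ran from 15.9 through 16.9 to 19.1 CPM, against 19.4 through 20.5 to 22.1 CPM. Grik2 had a median of 58.8 CPM against 63.4 CPM. The ratio of Glra1 to Glra2 per kb ran from 0.0369 in PBS female 1 to 0.933 in collagen domain male 2, and that of Gria1 to Gria2 from 1.27 in PBS female 1 to 1.97 in collagen domain female 2. Within each labelled treatment the first of these covered most of that span, from 0.0369 to 0.835 in PBS and from 0.0716 to 0.933 in collagen domain libraries. The median ratio of Gria1 to Gria2 was 1.48, and 1.08 with the longest transcript as length.

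PBS male 1 had 24.2 CPM of brainstem and Hox markers. Its cerebellum markers, at 22.1 CPM, were at the top of the low range of 17 to 22.1 CPM. Its Glra1 was at 4.66 CPM, above the 0.626 to 2.14 CPM of the 6 libraries low in both lists, while its Grm4 was at 29.7 CPM, within their range. Counting by the joint hindbrain list, which puts PBS male 1 with the high libraries (6 against 6), Glra1 and Gria4 lay above all others (2 of 46, 4.35%, beside 2.1% of all genes) and Gabrg3 lay below (1 of 46, 2.17%, beside 1.11%). Its Gria4 was at 139 CPM and the next lower library at 138 CPM, so that this separation was narrow. What the hindbrain RNA contributes to the library differences in these genes was not tested.

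**Figure D4:**
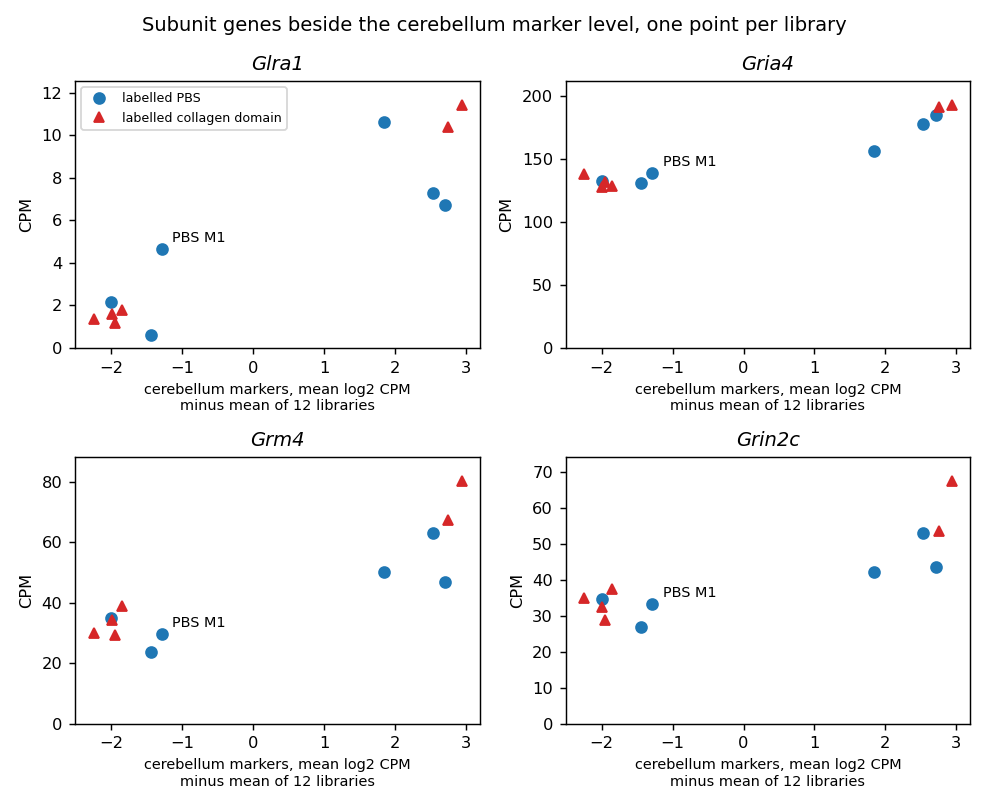
CPM of 4 members that were higher in every library with high cerebellum markers, beside the mean log2 CPM of 10 cerebellum markers (minus the mean of 12 libraries), 1 point per library, circles labelled PBS and triangles labelled collagen domain. For Grm4 the 5 libraries at the right have 47.0 to 80.3 CPM and the 7 at the left 23.7 to 39; among the 7, PBS male 1 (PBS M1) stands out for Glra1 at 4.66 CPM.

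RefSeq promoter windows (GRCm38.p6) were matched by symbol for 31 of the 47 members. Among those without a match were Gria1, Gria3, Grid1, Grik1, Grin2a, Grin2b, Grin3a, Grm4, Grm5, Gabrd and Glra1. Windows for 2 genes that were higher and 1 that was lower in the libraries with high cerebellum markers are shown to let their sequence be set beside that behaviour; they were chosen after the values were seen. Each is the 250 bases before the annotated start, 5′ to 3′ on the gene's strand, with capitals for GC boxes (GGGCGG on either strand) or CCAAT boxes (CCAAT on either strand). They lie at chr11:115267244-115267493 (minus strand) for Grin2c, chr9:4796235-4796484 (minus strand) for Gria4 and chr7:57387216-57387465 (minus strand) for Gabrg3.
Grin2c: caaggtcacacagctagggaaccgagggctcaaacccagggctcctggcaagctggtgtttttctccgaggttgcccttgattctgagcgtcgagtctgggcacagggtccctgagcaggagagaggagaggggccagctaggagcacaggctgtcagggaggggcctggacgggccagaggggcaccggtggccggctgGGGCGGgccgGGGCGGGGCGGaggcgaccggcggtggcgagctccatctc
Gria4: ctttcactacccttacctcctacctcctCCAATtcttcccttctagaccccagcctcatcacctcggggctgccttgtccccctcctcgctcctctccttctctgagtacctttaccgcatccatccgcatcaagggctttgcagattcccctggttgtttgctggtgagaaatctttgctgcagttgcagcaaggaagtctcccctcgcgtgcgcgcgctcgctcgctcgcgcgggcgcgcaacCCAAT
Gabrg3: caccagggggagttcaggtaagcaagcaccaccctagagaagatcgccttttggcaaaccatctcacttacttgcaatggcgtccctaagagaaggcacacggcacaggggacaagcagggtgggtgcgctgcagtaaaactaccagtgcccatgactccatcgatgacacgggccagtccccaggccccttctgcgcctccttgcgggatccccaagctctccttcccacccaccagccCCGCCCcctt
The Grin2c window held 3 GC boxes, of which the last pair share 1 base, and no CCAAT box. Gria4 held 2 CCAAT boxes, the second at the very end of the window, and no GC box, and Gabrg3 held 1 GC box. None of the 3 had a TATA box (TATAAA on either strand). Both genes that were higher thus had different elements in these windows. Over all 31 members with a window, 19 (61.3%) held a GC box, in at least 1 window of this length, beside 35.4% of the 27025 genes with one. A CCAAT box was found in 13 (41.9%), beside 37.5%, and TATAAA in 4 (12.9%), beside 14.3%. These matches are letters in a window, and say nothing of binding.

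The remaining wide genes followed other libraries. Gabre had 0.752, 0.958 and 2.55 CPM in PBS females, 0.928, 0.942 and 1.1 CPM in PBS males, 0.579, 2.59 and 1.23 CPM in collagen domain females and 0.786, 1.12 and 2.2 CPM in collagen domain males. Gabrq had 4.8, 6.31 and 10.3, then 6.07, 6.59 and 7.3, then 4.68, 10.9 and 8.24, and 5.99, 8.71 and 11 CPM in the same order. The highest 3 libraries of both genes were PBS female 3, collagen domain female 2 and collagen domain male 3, of which the last had low cerebellum and brainstem markers and the highest level of 10 hypothalamus markers, 146 CPM in sum against 42.1 to 92.5 CPM in the other libraries. PBS female 3 and collagen domain female 2 were within the latter range, at 65.1 and 65.6 CPM. Whether Gabre or Gabrq goes with these markers was not tested. Both genes and Gabra3 lie on chromosome X. Gabra3 did not follow them: it had 178, 151 and 181 CPM in those 3 libraries and was highest, at 216 CPM, in PBS female 1.

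Grin2a, Grin2b and Gabra4 varied without a clean split of the libraries. Grin2a was lowest in PBS female 1 and PBS male 3, at 17.8 and 21.6 CPM, and highest in collagen domain male 1, at 39.5 CPM. Grin2b was lowest in PBS male 3, at 155 CPM, and in collagen domain male 2, at 164 CPM, and highest in PBS male 2, at 297 CPM. Gabra4 was at 111 to 173 CPM in the 5 libraries with high cerebellum markers and at 160 to 207 CPM in the others, with PBS female 1 highest. PBS male 3 had the lowest value of 12 for 14 of the 46 members and the highest for 5, and PBS female 1 had the lowest for 12 and the highest for 8. No such count over all genes is given here, so these extremes may not be particular to the members. PBS male 3 and PBS female 1 also had the largest share of reads from mitochondrially encoded genes, 9.67% and 9.86%, beside 7.37 to 8.83% in the others. The part of this in their values was not tested.

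The proteins that traffic, anchor and cluster these receptors gave the same answer. None of 52 such companion genes, from TARPs (Cacng) and cornichons to PSD-95 (Dlg4), gephyrin (Gphn) and the KCTD subunits of GABA-B receptors, was called by edgeR for treatment in both sexes, beside 0.0% of all genes; DESeq2 also called none. Above 0 were 38 (73.1%, beside 50.1% of all genes) and below 0 were 14, with a median log2 fold change of 0.028, beside 0 over all genes. Only Kctd12, which speeds desensitisation of GABA-B receptors, had an unadjusted p under 0.05. It had 66.5, 44.3 and 44.8 CPM in PBS females, 41.7, 47.3 and 46.2 CPM in PBS males, 43.8, 41.7 and 38.5 CPM in collagen domain females and 35.9, 39 and 41.8 CPM in collagen domain males. PBS female 1 stood far above the rest. The log2 fold change was -0.27 (SE 0.0967, edgeR adjusted p = 1), and -0.17 without PBS female 1.

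Next by p came Grip2, a scaffold of AMPA receptors, at 26.6 ± 4.24 CPM in PBS and 29.8 ± 1.91 CPM in collagen domain libraries (SD, n = 6 each; log2 fold change 0.16, edgeR adjusted p = 1). Gphn had 84.8 ± 4.39 and 80.9 ± 1.77 CPM (-0.068), and Abhd6, a hydrolase that binds AMPA receptors, had 48.5 ± 2.48 and 46.3 ± 1.87 CPM (-0.066). Of the companions, 5 of 52 (9.62%, beside 5.06% of all genes) lay above all others in the 5 libraries with high cerebellum markers, and Cbln1, Homer3, Porcn and Shisa6 were among them. Cbln1, which encodes a cerebellin that organises synapses from outside the cell, had 64.3 to 127 CPM in those 5 libraries and 17.5 to 21.5 CPM in the other 7. Homer3, a scaffold that binds metabotropic glutamate receptors, had 16.9 to 36.6 CPM against 5.17 to 7.76 CPM. Cbln2, Cnih3 and Neto1 (5.77%, beside 2.79% of all genes) lay below, and Neto1, an auxiliary subunit of kainate receptors, had 49.9 to 58.0 CPM against 62.6 to 76.3 CPM. By the joint hindbrain list (6 libraries against 6), 0 of 52 companions lay above all others, beside 2.1% of all genes. Below all others lay 4 (7.69%, beside 1.11% of all genes): Cbln2, Dlg1, Homer1 and Nptx2.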

How the data were processed

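The authors deposited 1 table for the 12 libraries, which holds whole-number counts by Ensembl ID without normalisation. RNA was extracted with TRIzol and RNeasy columns with DNase, made into TruSeq version 2 libraries and read as 75-bp pairs on a NextSeq, per the labels' protocols. STAR, DESeq2 and GRCm39 are named per the submitters' processing notes; counting tool, strand setting and treatment of paralogs are not given in the sources used here. Reads of overlapping antisense genes could therefore enter a member's count. Of 43629 IDs, 42462 took symbols from GENCODE M21 (GRCm38), which also gave exon lengths.

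Genes were kept by filterByExpr (19145; 46 members) and tested with edgeR 4.0.16 in R 4.3.3 (TMM, robust quasi-likelihood F-test, two-sided, Benjamini-Hochberg over all genes, threshold 0.05; coefficient of biological variation 0.178). An additive model of sex and treatment gave the comparison of treatments in both sexes and that of the sexes, and a model of 4 groups gave the rest. CPM uses TMM-scaled totals, and log2 CPM a prior count of 2. Libraries of a group differed beyond counting noise (chi-square 11.6 to 100 per degree of freedom, 12 pairs), so none was the same library deposited again inside its own group; libraries of different groups were not checked in this way. Alternatives were DESeq2 1.42.0, limma-voom (limma 3.58.1), relative log expression factors, a replicate block, no filter on low counts, a minimum of 1 CPM in 6 libraries, an adjusted p of 0.1, leaving out each library in turn, the libraries against a label left out, a hindbrain covariate, other marker lists and the longest transcript. Scripts were tested on simulated counts.

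Members, companion and marker lists were chosen with earlier results of these data known. Genes named with statistics are the 5 members of smallest p for treatment, 3 in each other comparison, the highest and lowest of each family, the 10 largest and 5 smallest SDs and 4 companions; Glra1 in the processing alternatives, and other members named for their libraries, were picked after their values were seen. Of the 47 members, 42 are described, and the others enter counts and are not reported here. Read numbers limit precision, and no interval from counting error alone was used.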

Additional observations from a re-analysis of the deposited data

Results flagged for a closer look

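Groups of 6 libraries of 1 labelled treatment were examined, 82 in all (41 members in each treatment). In 7 of them the highest or lowest library lay far from the rest for the group's range. For independent, normally distributed values, chance gives about 5% of groups. These groups share the same libraries, so the 7 cannot be set against that level, and no share over all genes is given. PBS female 1, PBS female 3 and PBS male 3 account for all but 1 of the 7. PBS female 1 was low for Gabrb1, a GABA-A beta subunit gene (20.4 CPM, others 29.4 to 32.8), for Gabrb2 (135 CPM, others 179 to 197) and for the kainate receptor gene Grik1 (11.3 CPM, others 12.8 to 13.7). PBS male 3 was low for the AMPA receptor gene Gria3 (179 CPM, others 212 to 232) and for Grm2, a presynaptic glutamate receptor (21.3 CPM, others 30.9 to 33.8). PBS female 3 was high for Gabre (2.55 CPM, others 0.752 to 1.1). Collagen domain female 2 was high for Gria1 (420 CPM, others 370 to 383). PBS female 1 was low in cerebellum markers, and the other 3 of these libraries were high.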

How the results depend on the processing

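No member was called in any of the 22 alternatives of each of the 5 comparisons, the replicate block (0 members) included. Replicate numbers were checked for pairing, with no chance level beside the counts, so the check does not settle it. Of 18 same-numbered pairs, 7 deviated together with r over 0.1 (range -0.384 to 0.572). Different-numbered pairs ran from -0.541 to 0.477. Nearest to their own number were 6 of 12 libraries. The members' median log2 fold change for treatment in both sexes was 0.014 with the block and -0.006 to 0.036 with 1 library left out. Over all values compared, 573 were counted as the same, 6 as reversed and 3 as moved. For single genes, the same meant that direction and side of the threshold were kept. The members' median was judged by the size of its shift, so its turn to -0.006 counted as the same. All 6 counted reversals were in Glra1. Its log2 fold change turned positive with the hindbrain covariate (0.034) and without the 5 libraries against a label (0.681). It was also positive without the 4 against the treatment label (0.404). Leaving out 1 library moved it from -0.933 to 0.122. With cerebellum markers alone in place of the joint list, 6 members lay above and 4 below (2 and 1 with the joint list), and relative log expression factors gave 2 below. The order of levels kept the rank of 40 of 47 members with the longest transcript. Labels that 5 libraries contradict, uneven hindbrain RNA and 6 libraries per treatment limit what could be detected.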

Other observations

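For each of the 46 members tested, the libraries with the lowest and the highest value were counted, with no such count over all genes given here. Collagen domain female 2, high in hindbrain markers, was highest for 9 members and lowest for 6, while collagen domain male 1, low in them, was highest for 7 and lowest for 0. PBS male 1 and PBS female 3 were lowest for 0 members.

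Many GABA-A genes lie in clusters, and neighbours in a cluster were extreme in different libraries. On chromosome 7, Gabrg3 was lowest in PBS male 3 (20.4 CPM), where Gabra5 was at 59.5 CPM, within its range of 54.8 to 69.4. On chromosome 5, Gabrg1 was highest there (73.9 CPM), while Gabra2, Gabra4 and Gabrb1 were not (87.1, 173 and 30.7 CPM).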
